A study of Arabidopsis thaliana with 12 samples.

Results

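A set of 40 genes stood apart in the shoot apices of the Arabidopsis thaliana line rAP2-VENUS, out of 27416 genes with read counts, while the mutant ap2-12 and the wild type were close to each other for them. The genes were chosen by measured values. Counts were divided by the library total and multiplied by 1000000 to give CPM. A gene was taken when its mean over 12 libraries was at least 2 CPM, when all 4 rAP2-VENUS libraries lay above, or all 4 below, the 8 other libraries, when the rAP2-VENUS mean differed at least 1.5-fold from both other means, and when the larger of the ap2-12 and wild-type means was less than 25% above the smaller. AT1G53480, AT1G53490 and AT3G01345 were left out by name. Of the 40 genes, 19 were higher and 21 lower in rAP2-VENUS. The differences between genotypes in these genes are how they were selected, so they are given below as a description, with no test.

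The series compared the wild type Col-0 (WT), ap2-12, named as a mutant of APETALA2 (AP2), and rAP2-VENUS line #A6, whose name gives an AP2 construct joined to the yellow fluorescent protein VENUS. All 3 genotypes were raised in long days (16 h light, 8 h dark) and sampled once the stem was 1 cm tall. Each genotype had 4 libraries that the labels call independent biological replicates, and 15 apices are named in the extraction text without a clear statement that this is the number pooled for a library. The construct is represented by a single line, the labels do not explain the letter r or name a promoter, and they do not say whether the native AP2 gene is intact in it. The plants' age is not given in the labels. The labels therefore do not separate an effect of the construct from one of its place of insertion or of this line.

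AP2 is a transcription factor of the plant-specific AP2/ERF class that helps to set floral organ identity and to time flowering, and its messenger RNA is a target of the microRNA miR172. The shoot apex holds the inflorescence meristem, a pool of dividing cells, together with the flower primordia and young stem tissue that form on its flanks. Whole apices were sequenced in bulk, so fewer cells of a type and less RNA of a gene in each cell cannot be told apart.

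Library totals ran from 9680133 to 15152704 counts. AP2 itself was at 92.0, 49.2, 42.1 and 43.7 CPM in WT replicates 1 to 4, at 21.5, 16.1, 18 and 15.9 CPM in ap2-12, and at 57.7, 43.5, 41.1 and 41.2 CPM in rAP2-VENUS. The ap2-12 libraries lay below all others, and those of rAP2-VENUS overlapped WT. Reads of the construct and of the native gene were counted together. All 15 shoot apex and floral meristem markers had counts, with summed levels of 835 to 1170 CPM in WT, 749 to 1010 CPM in ap2-12 and 845 to 1020 CPM in rAP2-VENUS. The 5 root markers summed to 26.6 to 38.3 CPM in WT, 28.4 to 29.3 CPM in ap2-12 and 19.6 to 26.4 CPM in rAP2-VENUS. Nearly all of this was SHR, at 31.3, 28.6 and 23.3 CPM on average in WT, ap2-12 and rAP2-VENUS. The root hair gene EXPA7 of that list was at 0 in every library.

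The selection narrowed in steps. Of 17032 genes averaging 2 CPM or more, all 4 rAP2-VENUS libraries lay above the 8 others for 186 genes (1.09%) and below them for 272 genes (1.6%). A difference of at least 1.5-fold from both means was reached by 78 genes in each direction. Most genes that went no further were split by the limit on ap2-12: 58 of the higher genes had ap2-12 and WT 25% or more apart, with ap2-12 below WT for 56 of them, and 57 of the lower genes failed in the same way, with ap2-12 above WT for 52. A further gene met every criterion but was on the list of names left out. The 40 genes that remained were 0.235% of the 17032. The same selection with ap2-12 as the genotype that stands apart gave 688 genes (231 higher and 457 lower), and with WT it gave 11 genes (8 higher and 3 lower).

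**Figure D1:**
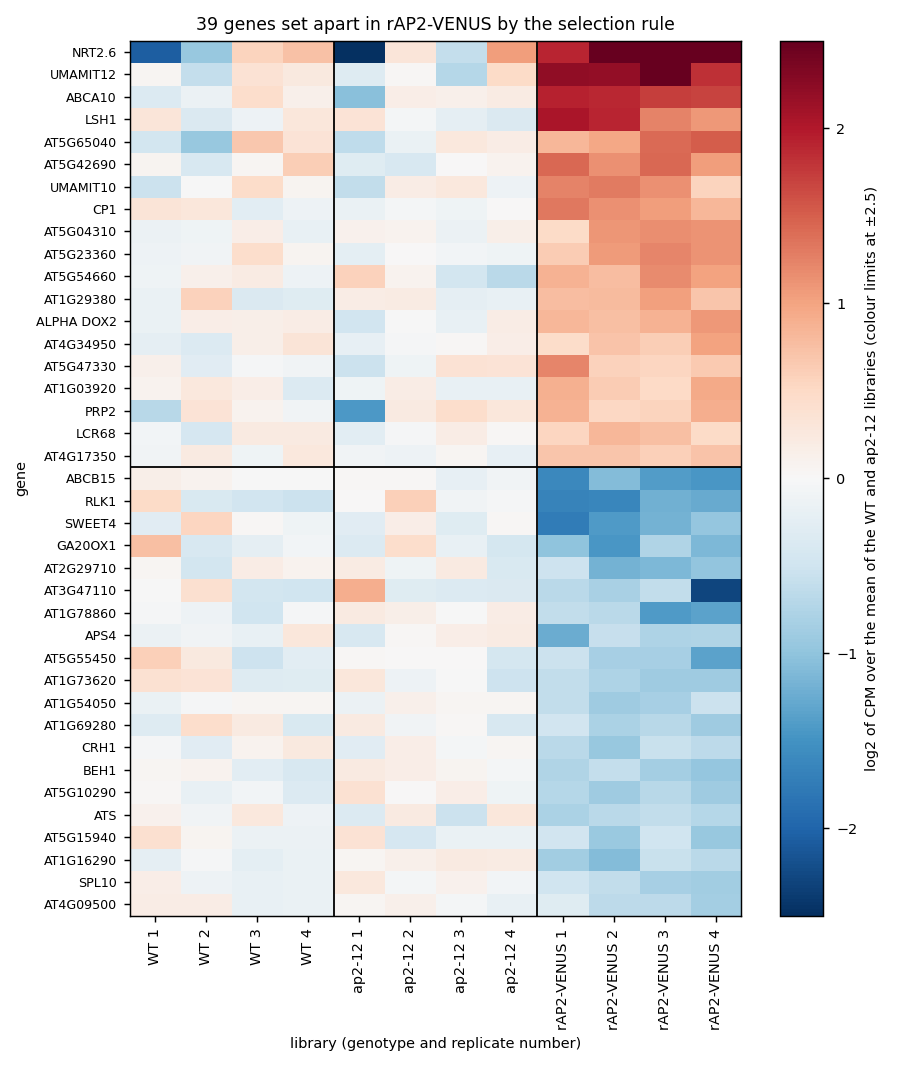
Each row is one of 39 selected genes, each column a library, and the colour is the log2 of its CPM over the mean of the 8 WT and ap2-12 libraries, with colour limits at 2.5 in either direction. The upper block holds the 19 higher genes, from NRT2.6 at 6.06-fold to AT4G17350 at 1.5-fold, and the lower block 20 of the lower genes, from ABCB15 at 2.5-fold to AT4G09500 at 1.5-fold.

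Where a single fold is given below, it is the smaller of the folds to WT and to ap2-12. Only 12 of the 40 genes reached 2-fold, 8 of them higher and 4 lower. The mean over all libraries was under 10 CPM for 27 genes and 20 CPM or more for 5, and the median over the 40 was 5.45 CPM against 29.1 CPM for all genes with at least 2 CPM. CPM is not scaled by length, and the median transcript length was 1714 bases against 1795. The gap between the nearest rAP2-VENUS library and the nearest other library had a median of 1.17-fold over the 40 genes and was 1.1-fold or more for 26 of them. It was widest for UMAMIT12 at 2.54-fold.

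At the edge of the selection, AT4G17350 (1.5-fold), LCR68 (1.56-fold) and PRP2 (1.61-fold) were the higher genes just inside, and BLT (1.49-fold), AT1G23170 (1.46-fold) and KNATM (1.45-fold) were just outside. Among the lower genes AT4G09500 (1.501-fold), AT1G16290 (1.54-fold) and SPL10 (1.54-fold) were just inside, and AT3G06630 (1.498-fold), AT1G14260 (1.497-fold) and AT4G32295 (1.49-fold) just outside. The folds nearest to the limit were 1.504 inside and 1.493 outside for the higher genes, and 1.501 and 1.498 for the lower. The edge of the set is therefore not a natural break.

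Sorted by the product names of the annotation, after the set was known, the 40 genes comprised 7 transporters (5 higher and 2 lower), 7 transcription factors and other nuclear proteins (2 and 5), 7 kinases and signalling proteins (4 and 3), 8 cell wall, secreted and defence-type proteins (5 and 3), 8 enzymes (2 and 6) and 3 chaperone-type or uncharacterized proteins (1 and 2). No symbol was found for 21 of them, which are called by their locus identifiers.

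The largest differences were in transporters. NRT2.6 (AT3G45060, chromosome 3), a member of the NRT2 family of high-affinity nitrate transporters, was at 0.723, 1.58, 4.44 and 5.05 CPM in WT replicates 1 to 4, at 0.478, 3.74, 2.02 and 6.24 CPM in ap2-12, and at 11.3, 18.8, 22.1 and 23.3 CPM in rAP2-VENUS. Every rAP2-VENUS library was above the highest other library, ap2-12 replicate 4, and the mean of 18.9 ± 5.41 CPM (SD, n = 4) was 6.41-fold the WT mean and 6.06-fold the ap2-12 mean. The libraries of a genotype also differed widely among themselves, with 7 reads in WT replicate 1 and 72 in WT replicate 4.

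UMAMIT12 (AT2G37460, chromosome 2) belongs to the UMAMIT family, membrane proteins whose characterized members move amino acids out of cells. It was at 1.34, 0.858, 1.67 and 1.54 CPM in WT, at 1.04, 1.32, 0.793 and 1.80 CPM in ap2-12, and at 5.98, 5.93, 7.94 and 4.58 CPM in rAP2-VENUS. The WT and ap2-12 libraries were all under 2 CPM and those of rAP2-VENUS all over 4, a 4.51-fold difference to WT with 11 to 84 reads a library. Its relative UMAMIT10 (AT3G56620) was at 3.2 to 6.40 CPM in WT, 3.03 to 5.55 CPM in ap2-12 and 6.87 to 11.4 CPM in rAP2-VENUS, a 2.07-fold difference in which rAP2-VENUS replicate 4 was close to WT replicate 3.

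ABCA10 (AT5G61740), an ATP-binding cassette transporter of subfamily A, was at 1.55, 1.78, 2.69 and 2.17 CPM in WT, at 0.956, 2.22, 2.16 and 2.29 CPM in ap2-12, and at 7.55, 7.35, 6.52 and 6.39 CPM in rAP2-VENUS. The rAP2-VENUS libraries were 3.39-fold higher on average, with little spread among themselves (6.95 ± 0.584 CPM, SD, n = 4). AT4G34950, a protein of the major facilitator superfamily of membrane carriers, was at 6.01 to 9.53 CPM in the 8 other libraries and at 10.4 to 15.3 CPM in rAP2-VENUS (1.64-fold).

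The other two transporters were lower. ABCB15 (AT3G28345), an ATP-binding cassette transporter of subfamily B, was at 18.8, 18, 16.8 and 16.8 CPM in WT, at 17.2, 17.4, 14.7 and 15.9 CPM in ap2-12, and at 5.54, 7.98, 6.43 and 6.18 CPM in rAP2-VENUS. WT was 2.69-fold and ap2-12 2.5-fold above rAP2-VENUS, with a gap of 1.84-fold between the nearest libraries. SWEET4 (AT3G28007), of the SWEET family of sugar transporters, was at 2.48, 4.36, 3.06 and 2.80 CPM in WT, at 2.47, 3.39, 2.45 and 3.05 CPM in ap2-12, and at 0.898, 1.13, 1.32 and 1.53 CPM in rAP2-VENUS (2.33-fold), with 12 to 66 reads a library. ABCB15 and SWEET4 lie on chromosome 3 with 34 genes between them.

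**Figure D2:**
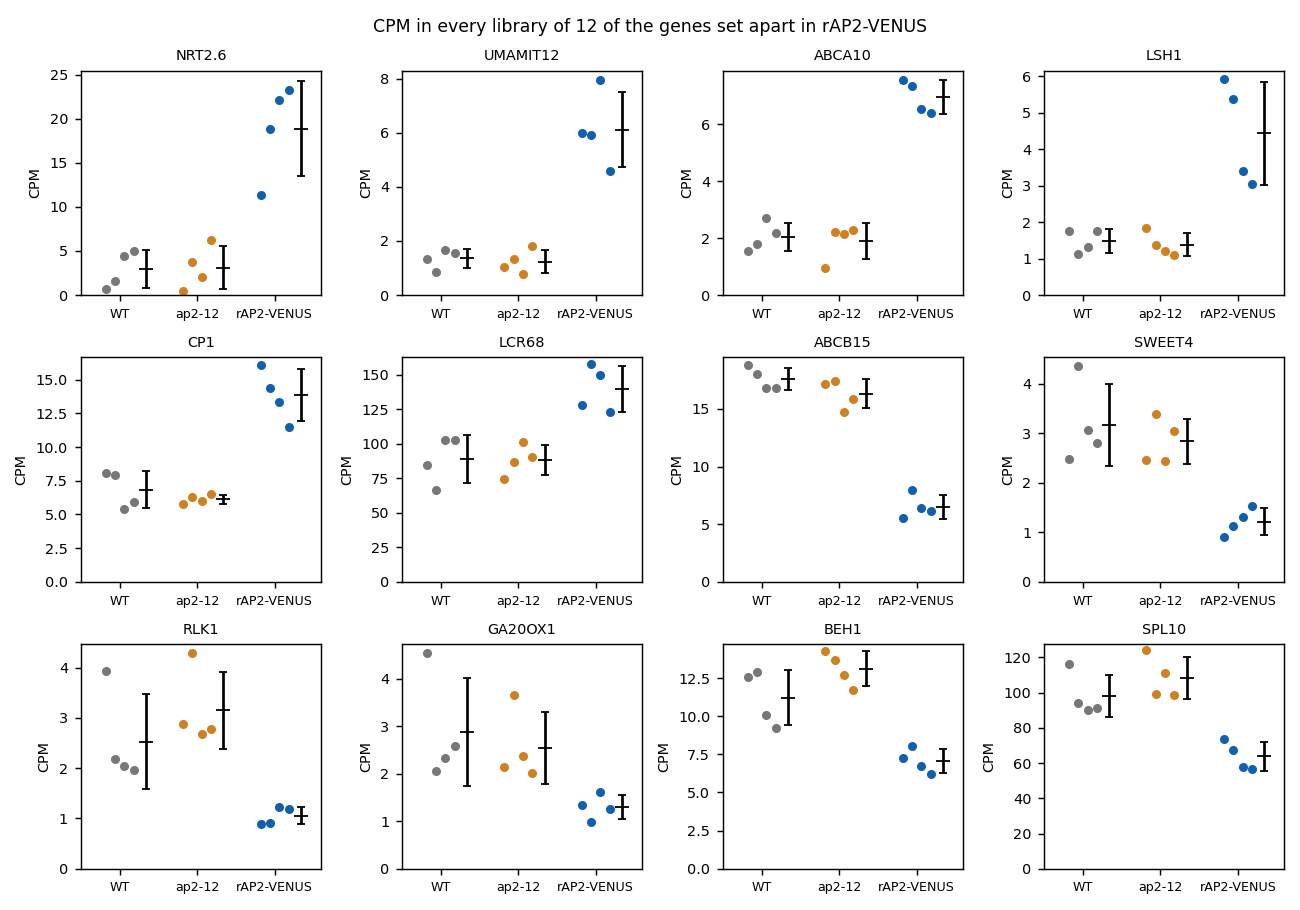
Points are single libraries in CPM for 12 of the selected genes, with replicates 1 to 4 from left to right in each genotype, and the bar beside each group is its mean and SD (n = 4). In the 6 genes NRT2.6, UMAMIT12, ABCA10, LSH1, CP1 and LCR68 the rAP2-VENUS points lie above all others, and in ABCB15, SWEET4, RLK1, GA20OX1, BEH1 and SPL10 below them.

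The sequences around the annotated start of the 4 genes NRT2.6, UMAMIT12, ABCB15 and RLK1 are shown because these are the pair with the largest fold among the higher genes and the pair among the lower genes. Each runs 5′ to 3′ on the gene's strand, from 250 bases before to 50 bases after the start given by RefSeq for build TAIR10.1 (the count table names TAIR10 and holds no coordinates). Capitals mark AACAAA, an element bound by AP2 in Arabidopsis, on either strand (TTTGTT on the other) and the TATA element TATAAA, and in ABCB15 the capitals join a TATAAA on the printed strand with an overlapping one on the other. The windows are chr3:16479510-16479809 for NRT2.6, chr2:15729121-15729420 for UMAMIT12, chr3:10598993-10599292 for ABCB15 and chr5:24501721-24502020 for RLK1, and all 4 genes are on the minus strand.
NRT2.6: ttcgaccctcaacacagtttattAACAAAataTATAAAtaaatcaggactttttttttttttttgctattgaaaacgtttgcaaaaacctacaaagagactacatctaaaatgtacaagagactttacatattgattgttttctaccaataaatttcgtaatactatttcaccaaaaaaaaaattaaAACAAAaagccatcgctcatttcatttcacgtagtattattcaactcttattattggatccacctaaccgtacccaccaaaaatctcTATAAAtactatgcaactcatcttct
UMAMIT12: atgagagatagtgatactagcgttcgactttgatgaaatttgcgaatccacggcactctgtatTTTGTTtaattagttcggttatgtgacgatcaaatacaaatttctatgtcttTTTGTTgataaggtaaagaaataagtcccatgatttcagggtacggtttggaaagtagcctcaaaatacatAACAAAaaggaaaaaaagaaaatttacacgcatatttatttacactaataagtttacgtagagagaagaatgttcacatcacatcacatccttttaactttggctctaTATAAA
ABCB15: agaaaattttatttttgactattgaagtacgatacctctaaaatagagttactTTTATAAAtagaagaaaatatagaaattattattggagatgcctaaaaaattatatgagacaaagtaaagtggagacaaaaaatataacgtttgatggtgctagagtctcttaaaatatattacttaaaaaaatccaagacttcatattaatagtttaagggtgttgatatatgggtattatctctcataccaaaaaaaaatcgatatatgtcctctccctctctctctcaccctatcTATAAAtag
RLK1: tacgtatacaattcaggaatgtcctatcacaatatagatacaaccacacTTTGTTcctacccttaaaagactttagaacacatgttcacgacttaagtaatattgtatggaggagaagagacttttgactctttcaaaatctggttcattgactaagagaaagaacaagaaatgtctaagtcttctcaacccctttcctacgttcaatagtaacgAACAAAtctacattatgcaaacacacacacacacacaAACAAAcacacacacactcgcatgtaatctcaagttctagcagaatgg

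AACAAA occurred 2 times in the NRT2.6 window and 3 times each in the windows of UMAMIT12 and RLK1, and was not found in that of ABCB15. The count of this short element has to be read against its frequency: AACAAA or its complement was in 28 of the 40 windows (70.0%, 12 of 19 higher and 16 of 21 lower genes) and in 10443 of 16966 windows (61.6%) of genes with at least 2 CPM. TATAAA was in 24 of 40 windows (60%) against 50.1%, in 15 of the 19 higher genes (78.9%) and 9 of the 21 lower ones (42.9%). The other elements searched on both strands were the G-box CACGTG in 10% of the windows against 9.05%, the W-box TTGACC in 10% against 14.0%, the telo-box AAACCCTA in 7.5% against 5.91%, and the evening element AAAATATCT in 2.5% against 3.07%. A match shows that the letters are present and does not show binding, and a window without one says nothing about the factor.

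Among transcription factors and other nuclear proteins, LSH1 (AT5G28490), a member of the ALOG family of plant nuclear proteins first described for light-dependent growth of the hypocotyl, was at 1.76, 1.12, 1.31 and 1.75 CPM in WT, at 1.83, 1.38, 1.22 and 1.11 CPM in ap2-12, and at 5.91, 5.37, 3.40 and 3.05 CPM in rAP2-VENUS. The rAP2-VENUS mean of 4.43 ± 1.42 CPM (SD, n = 4) was 2.99-fold the WT mean, and its replicates 1 and 2 stood above 3 and 4. AT5G42690, annotated as a putative transcription factor with a domain of unknown function, was at 2.22 to 4.49 CPM in the other libraries and at 6.11 to 8.00 CPM in rAP2-VENUS (2.22-fold).

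SPL10 (AT1G27370), an SBP-box transcription factor that promotes the change from the juvenile to the adult phase of shoot growth, was at 116, 94.4, 90.4 and 91.3 CPM in WT, at 124, 99.0, 111 and 98.6 CPM in ap2-12, and at 73.4, 67.3, 57.8 and 56.6 CPM in rAP2-VENUS. The rAP2-VENUS mean of 63.8 ± 8.02 CPM lay 1.54-fold below WT and 1.70-fold below ap2-12. SPL10 had 611 to 1559 reads a library and was among the 5 genes with the most reads in the set.
SPL10 is one of the SPL genes whose RNA pairs with the microRNA miR156, and the pairing stretch is shown for that reason, with the seed of the microRNA (bases 2 to 8) and its complement in the transcript in capitals, both written as DNA from RefSeq TAIR10.1. The site starts at base 2739 of the longest SPL10 transcript and differs from a full complement of miR156a at 1 base.
miR156a-5p: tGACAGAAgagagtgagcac
SPL10 site: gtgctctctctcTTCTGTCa

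BEH1 (AT3G50750), a homolog of the brassinosteroid-response factors BES1 and BZR1, was at 12.6, 12.9, 10.1 and 9.25 CPM in WT, at 14.3, 13.7, 12.7 and 11.7 CPM in ap2-12, and at 7.26, 8.05, 6.71 and 6.18 CPM in rAP2-VENUS (1.59-fold). ATS (AT5G42630), a KANADI-type factor also called KAN4 that is known for its role in the ovule integuments, was at 1.5 to 1.70 CPM in rAP2-VENUS and 1.80 to 3.19 CPM elsewhere (1.57-fold). It had at most 46 reads in a library, and its nearest ap2-12 library was within 1.06-fold of the highest rAP2-VENUS library. CRH1 (AT4G36280), a MORC-type ATPase, was at 3.11 to 4.06 CPM in rAP2-VENUS and 4.94 to 7.08 CPM elsewhere (1.60-fold).

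Among kinases and signalling proteins, RLK1 (AT5G60900), a receptor-like kinase, was at 3.93, 2.18, 2.04 and 1.96 CPM in WT, at 2.87, 4.29, 2.67 and 2.77 CPM in ap2-12, and at 0.898, 0.918, 1.23 and 1.18 CPM in rAP2-VENUS (2.39-fold). WT replicate 1 and ap2-12 replicate 2 each stood above the rest of their group. AT5G10290, a leucine-rich repeat receptor kinase with 397 to 993 reads a library, was at 62.3, 53.4, 58.2 and 47.8 CPM in WT, at 79.1, 61.0, 68.5 and 56.3 CPM in ap2-12, and at 36.9, 32.8, 37.5 and 32.9 CPM in rAP2-VENUS (1.58-fold). AT3G47110, another leucine-rich repeat kinase, was at 0.833 to 2.65 CPM in rAP2-VENUS and 2.87 to 7.65 CPM elsewhere (1.82-fold). It overlaps AT3G47120 on the same strand, so reads of the overlap can have been assigned to either gene or to none.

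Of the higher genes of this class, AT5G65040, a protein of the DUF581 family, was at 2.89, 2.05, 6.33 and 4.98 CPM in WT, at 2.55, 3.53, 4.76 and 4.50 CPM in ap2-12, and at 7.03, 7.70, 10.6 and 11.2 CPM in rAP2-VENUS (2.25-fold). In all 3 genotypes replicates 3 and 4 were above replicates 1 and 2. AT5G23360, a GRAM-domain protein annotated as similar to abscisic acid-responsive proteins, was at 8.13 to 12.9 CPM in the other libraries and at 14.8 to 22.2 CPM in rAP2-VENUS (1.91-fold). The protein kinase AT1G03920 was at 1.68 to 2.57 CPM against 3.02 to 4.10 CPM (1.61-fold). AT4G17350, annotated as an auxin canalization protein, was at 4.50 to 6.24 CPM against 7.85 to 8.47 CPM (1.5-fold), and it overlaps AT4G17360 on the opposite strand, which was at 2.09 CPM in WT, 3.28 CPM in ap2-12 and 2.36 CPM in rAP2-VENUS on average. Whether the counting used strand is not stated in the sources, so such reads may not have been separated.

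Proteins of the cell wall, secreted proteins and defence-type proteins followed. CP1 (AT4G36880), a papain-type cysteine protease, was at 8.06, 7.92, 5.38 and 5.96 CPM in WT, at 5.74, 6.30, 5.98 and 6.51 CPM in ap2-12, and at 16.1, 14.4, 13.3 and 11.5 CPM in rAP2-VENUS (2.03-fold). LCR68 (AT2G02130), a small cysteine-rich protein of the plant defensin type and the gene with the most reads in the set (819 to 2234 a library), was at 84.6, 66.5, 103 and 103 CPM in WT, at 74.3, 87.0, 101 and 90.2 CPM in ap2-12, and at 128, 158, 150 and 123 CPM in rAP2-VENUS (1.56-fold). PRP2 (AT2G21140), a proline-rich protein of the cell wall, was at 20.2, 15.9, 16.2 and 20.6 CPM in rAP2-VENUS and at 4.06 to 14.9 CPM elsewhere (1.61-fold). The ap2-12 libraries of PRP2 ranged most widely, from 4.06 CPM in replicate 1 to 14.9 CPM in replicate 3, close under the lowest of rAP2-VENUS.

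The pectin lyase-like AT5G04310, named for enzymes that cut the wall polymer pectin, was at 4.34, 6.64, 6.99 and 6.73 CPM in rAP2-VENUS and at 2.73 to 3.49 CPM elsewhere (1.91-fold). AT1G29380, with a carbohydrate-binding X8 domain, was at 5.48 to 6.81 CPM against 2.62 to 5.02 CPM (1.76-fold). It overlaps the more highly counted AT1G29390 on the opposite strand, which was at 29.7 CPM in WT, 23.0 CPM in ap2-12 and 28.3 CPM in rAP2-VENUS.

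Of the lower genes of this class, AT5G55450, a protein of the lipid-transfer and seed storage albumin family, was at 51.8, 40.9, 24.1 and 28.7 CPM in WT, at 35.0, 34.7, 34.4 and 25.2 CPM in ap2-12, and at 23.7, 19.4, 19.4 and 13.5 CPM in rAP2-VENUS (1.70-fold). WT replicate 3 was within 1.02-fold of rAP2-VENUS replicate 1, and an antisense gene without a row in the count table overlaps it. AT1G73620, a thaumatin-type protein related to pathogenesis-related proteins, was at 40.4, 39.0, 24.9 and 25.1 CPM in WT, at 37.8, 28.2, 30.6 and 21.7 CPM in ap2-12, and at 20.2, 18, 16.7 and 16.8 CPM in rAP2-VENUS (1.64-fold). In both genes WT replicates 1 and 2 were far above 3 and 4, and rAP2-VENUS had the smallest SD of the 3 genotypes. AT1G78860, a lectin that binds mannose, was at 2.17 to 3.74 CPM against 4.07 to 6.77 CPM (1.75-fold), and its transcript is 91.2% identical over 1394 bases to that of AT1G78850, so reads may have been lost or exchanged between the copies. AT1G78850 was at 2.01 CPM in WT, 5.16 CPM in ap2-12 and 2.30 CPM in rAP2-VENUS on average.

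Of the 8 genes placed in the class of enzymes, 6 were lower. The protease CP1 and the pectin lyase-like AT5G04310, both higher, and the kinases had been placed in other classes. GA20OX1 (AT4G25420), a gibberellin 20-oxidase, makes precursors of the active forms of this growth hormone. It was at 4.55, 2.05, 2.33 and 2.59 CPM in WT, at 2.15, 3.67, 2.38 and 2.01 CPM in ap2-12, and at 1.35, 0.989, 1.61 and 1.2 CPM in rAP2-VENUS (1.97-fold), with 14 to 53 reads a library. WT replicate 1 alone was above 4 CPM, and without it the log2 ratio of rAP2-VENUS to WT was -0.84 instead of -1.15.

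APS4 (AT5G43780), an ATP sulfurylase of the first step of sulfate assimilation, was at 17.8, 18.5, 17.2 and 23.8 CPM in WT, at 14.8, 19.9, 22.0 and 22.7 CPM in ap2-12, and at 8.30, 13.2, 11.5 and 11.7 CPM in rAP2-VENUS (1.73-fold). The antisense gene that overlaps it, AT5G43770, had no reads. A pair of UDP-glycosyltransferases, enzymes that attach sugars to small molecules, was lower: AT2G29710 was at 1.27 to 2.02 CPM against 2.11 to 3.39 CPM (1.89-fold), and AT4G09500 at 9.65 to 14.1 CPM against 15.2 to 19.7 CPM (1.5-fold). AT1G16290, annotated as a transglycosylase, was at 3.89 to 5.58 CPM against 6.91 to 9.58 CPM (1.54-fold), and AT5G15940, of the family of Rossmann-fold enzymes that bind NAD(P), at 1.2 to 1.72 CPM against 1.80 to 3.2 CPM (1.55-fold).

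The higher genes of the enzyme class were ALPHA DOX2 and AT5G47330. ALPHA DOX2 (AT1G73680), a dioxygenase that oxidizes fatty acids, was at 8.68, 10.9, 10.8 and 11.1 CPM in WT, at 6.93, 9.62, 8.50 and 11.1 CPM in ap2-12, and at 17.2, 16.3, 17.7 and 20.5 CPM in rAP2-VENUS (1.73-fold), with no library of another genotype above 11.1 CPM. AT5G47330, of the alpha/beta-hydrolase family, was at 4.86, 3.11, 3.02 and 3.26 CPM in rAP2-VENUS and at 1.43 to 2.67 CPM elsewhere (1.64-fold), and rAP2-VENUS replicate 1 stood above the other libraries of its group.

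The 2 small heat shock-type (HSP20-like) proteins of the set stood apart in opposite directions. AT5G54660 was at 4.52 to 6.05 CPM in rAP2-VENUS and 1.66 to 3.98 CPM elsewhere (1.91-fold). AT1G54050 was at 10.1, 8.34, 8.70 and 10.6 CPM in rAP2-VENUS and at 13.7 to 16.8 CPM elsewhere (1.62-fold), with an SD near 1 CPM in each genotype. The uncharacterized AT1G69280 was at 2.64 to 3.52 CPM against 3.74 to 6.67 CPM (1.60-fold). It overlaps AT1G69290 on the same strand, with 819 bases in common, so its counts are uncertain.

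**Figure D3:**
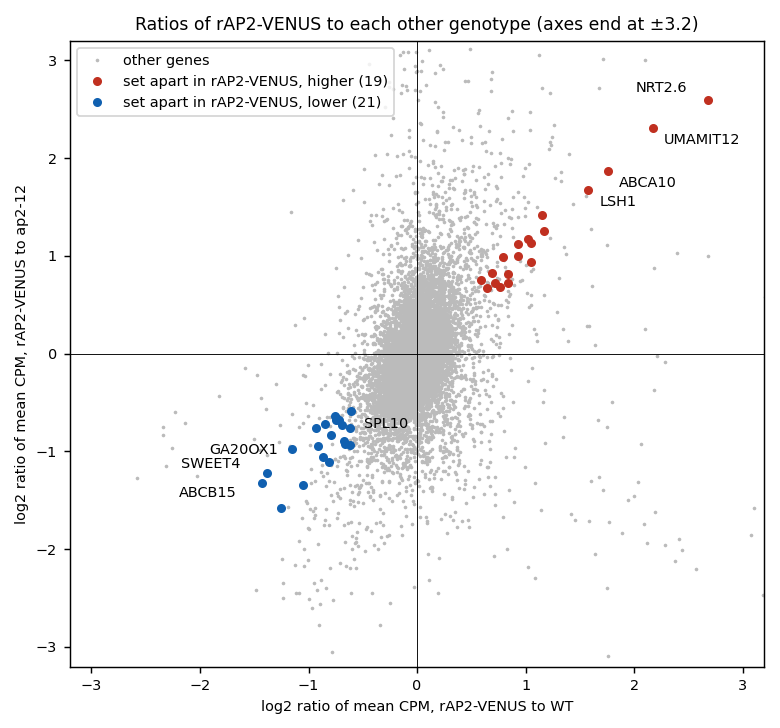
Each grey point is a gene averaging 2 CPM or more, plotted by the log2 ratio of its mean CPM in rAP2-VENUS to WT (x axis) and to ap2-12 (y axis), with both axes ending at 3.2 in either direction. The axes share the rAP2-VENUS mean, and the selected genes lie near the diagonal because the rule asked for like means in WT and ap2-12, from NRT2.6 at 2.68 and 2.6 to ABCB15 at -1.43 and -1.32.

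In edgeR's quasi-likelihood fit of all 18807 genes that passed its low-count filter, which kept all 40, 13 of the 40 genes had an adjusted p under 0.05 for rAP2-VENUS against WT, where 118 genes or 0.627% of those tested did. The libraries that bear the same replicate number deviated together in these genotypes, and with the replicate number as a block 28 of the 40 were called, against 424 genes or 2.25% overall (207 higher and 217 lower). Against ap2-12, 33 of the 40 were called, where 3686 genes or 19.6% were. These counts use the contrasts that chose the genes, and both comparisons share the rAP2-VENUS libraries, so nothing is read from them.

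Variation between replicate numbers was the measure that the selection did not set out to use. With genotype in the model, 5548 genes or 29.5% of those tested differed between replicate numbers 1 to 4 (edgeR F test of 3 coefficients), and 7 of the 40 did, the higher genes NRT2.6 and AT5G65040 and the lower genes AT5G55450, AT1G73620, AT5G10290, SPL10 and AT4G09500. The selection limits how far the libraries of these genes can spread, and 27 of the 40 had few reads, so their smaller share is a description. The adjusted p was 0.0232 for NRT2.6 and 0.0187 for AT5G65040, and both genes were lowest on average in the libraries numbered 1. It was 0.0183 for AT5G10290, 0.0213 for AT5G55450, 0.0224 for AT1G73620, 0.0275 for SPL10 and 0.0439 for AT4G09500.

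The averages over the 3 genotypes show the pattern. NRT2.6 was at 4.17, 8.04, 9.52 and 11.5 CPM in the libraries numbered 1, 2, 3 and 4. The libraries numbered 1 were the lowest in all 3 genotypes. Within each number rAP2-VENUS was the highest, as the selection requires. In the 8 WT and ap2-12 libraries alone 3 of the 40 genes differed between numbers. With all libraries 13 of the 40 had an unadjusted edgeR p under 0.05, where 7959 of 18807 genes tested did. Without WT replicate 1 these were 11 of the 40 and 6488 of the genes tested in that fit. Nothing is read from these counts. With all 3 genotypes in the fit, edgeR called 0 of the 40 when WT replicate 1 was left out. It called 1 without WT replicate 4, 2 and 1 without ap2-12 replicates 1 and 4, and 4 without rAP2-VENUS replicate 4. Of 16 clock genes tested, 14 differed between the replicate numbers in the same fit. Whether hour of harvest, growth batch or another property lies behind the numbers is not stated in the labels and was not tested.

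**Figure D4:**
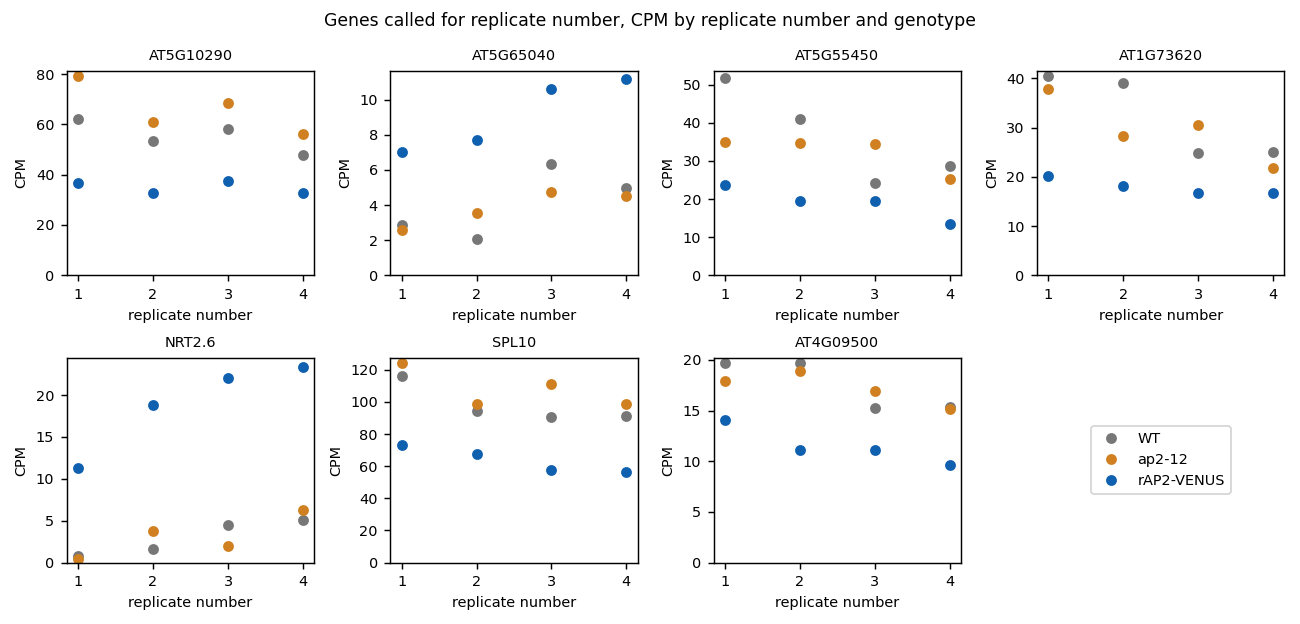
The CPM of the 7 selected genes called for replicate number is plotted against that number, with a point for each library coloured by genotype. Within every number the rAP2-VENUS point is the highest for NRT2.6 and AT5G65040 and the lowest for the other 5 genes, as the selection requires. The libraries numbered 1 are the lowest for NRT2.6 in each genotype.

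The pathways and families of the 40 genes were examined next. Of 18 gene lists, 16 held none of the 40 and 2 held a single one each, UMAMIT12 in amino acid transport and GA20OX1 in gibberellin metabolism. None of the 40 was on the 10 lists of cell type markers. Among the other amino acid transport genes, GDU4, a glutamine dumper protein, was at 4.17 ± 0.375 CPM in WT, 2.67 ± 0.638 CPM in ap2-12 and 11 ± 0.800 CPM in rAP2-VENUS (SD, n = 4), a log2 fold change to WT of 1.42 (SE 0.16, edgeR adjusted p = 0.00132). UMAMIT28 had a log2 difference from WT of 2.95 ± 0.41 (SE) and an adjusted p of 0.00621, from 0.294 CPM in WT and 0.144 CPM in ap2-12 to 2.36 CPM in rAP2-VENUS. Both were lower in ap2-12 than in WT on average by more than the limit of 25% allows. These were 2 of 16 tested genes of the list, beside UMAMIT12, whose call against WT is part of its selection. None was called lower, where 0.261% of all genes tested were called higher and 0.367% lower. The list was put together with earlier results of these data known. UMAMIT12 and UMAMIT28 are the only UMAMIT genes on it, and UMAMIT30, called lower (below), is not. Nothing is therefore read from the calls or the median of this list. With the replicate block AAP2, an amino acid permease, was called higher as well (adjusted p = 0.0119) and the amino acid transporter LHT1 lower (adjusted p = 0.0355), and the median log2 fold change of the list was 0.15 against 0.000549 for all genes tested.

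Families of the selected genes, put together after the set was known, seldom moved as a whole. Of 27 UMAMIT genes tested, UMAMIT14 (log2 fold change 1.02, SE 0.11, adjusted p = 0.00073) and UMAMIT28 were called higher besides UMAMIT12, and UMAMIT30 lower (-2.58, SE 0.31, adjusted p = 0.00203). Of 14 tested genes matched by an SPL symbol alone, none was called besides SPL10. These include AT1G54150 and AT5G43270, which share the symbol SPL2, so a gene of another class may be counted. SPL11, a near relative of SPL10, had a log2 difference from WT of -0.19 ± 0.10 (SE) and an adjusted p of 0.757. Among the 6 genes of the BZR1 and BES1 family, BEH1 was lower by the selection, whereas BEH4 had a log2 fold change of 0.41 (SE 0.11) with an adjusted p of 0.137, or 0.0174 with the replicate block.

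LSH1 was higher than in WT while its relatives LSH3 and LSH4, which mark organ boundaries, had log2 fold changes of -0.64 (SE 0.13, adjusted p = 0.0521, with the replicate block 0.0121) and -0.95 (SE 0.33, adjusted p = 0.347, with the block 0.00695). GA20OX1 and GA20OX2 were the gibberellin 20-oxidases with enough reads to test. GA20OX2 was at 5.30 ± 1.60 CPM in WT, 2.7 ± 0.880 CPM in ap2-12 and 12.6 ± 1.52 CPM in rAP2-VENUS (SD, n = 4), a log2 difference from WT of 1.28 ± 0.23 (SE) and an adjusted p of 0.0258. GA20OX1, in contrast, was lower by its selection and was not called against WT (edgeR adjusted p = 0.156, with the block 0.102). GA20OX2 was the single gene of 13 tested in the gibberellin list called without the block (median log2 fold change -0.06). No gene outside the set was called against WT without the block in the SWEET, ABCB, ABCA, NRT2, KANADI and ATP sulfurylase families or among PRP1 to PRP4. With the block the call of SWEET13 (lower, adjusted p = 0.0305) and, among the UMAMIT genes, that of UMAMIT27 (higher, adjusted p = 0.0268) were added outside the set.

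Other lists changed without holding any of the 40. Of 16 tested flowering MADS and AP2-like genes 4 fell against WT (6 with the replicate block) and none rose, where 0.367% of all genes tested were lower (1.15% with the block), among them AGL20 (also SOC1), a promoter of flowering, at -1.10 (SE 0.11, adjusted p = 0.00038), with 124 CPM in ap2-12, 49.4 in WT and 22.8 in rAP2-VENUS. SOC1 was thus ordered from ap2-12 through WT to rAP2-VENUS, the pattern that the limit on ap2-12 keeps out of the set.

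On the chromosomes, 9, 5, 6, 6 and 14 of the genes lay on chromosomes 1 to 5, which is 22.5%, 12.5%, 15.0%, 15.0% and 35.0% of the 40, against 26.3%, 15.0%, 20%, 15.2% and 23.5% of genes with at least 2 CPM. Chromosome 5 held 8 of the 19 higher and 6 of the 21 lower genes. No 2 of the 40 genes were next to each other or had at most 2 genes between them. The closest were AT1G73620 and ALPHA DOX2 with 6 genes between them and ATS and AT5G42690 with 7, and in both pairs a lower gene lay near a higher one. CP1 lies near AP2 itself with IRX14, RAP2.10 and LEJ2 between them. Those 3 genes had log2 fold changes against WT of 0.08 (SE 0.09, adjusted p = 0.952), -0.34 (SE 0.20, adjusted p = 0.801) and 0.06 (SE 0.10, adjusted p = 0.982). CP1 itself was at 13.8 ± 1.91 CPM in rAP2-VENUS against 6.83 ± 1.36 in WT (SD, n = 4), a difference that is its selection. No gene between it and AP2 was called, in a fit that called 0.627% of all genes tested.

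The 2 genes on each side of the 40 numbered 160, of which 117 were tested. The log2 fold change against WT was above 0 for 34 of 58 neighbours of higher genes and below 0 for 35 of 59 neighbours of lower genes, against 50.2% above 0 among all genes tested. A single neighbour was called (0.855% of those tested, against 0.627% of all genes), AGL8 (FRUITFULL, FUL), a MADS-box gene of flowering and fruit growth that lies 663 bases from RLK1 on the same strand. AGL8 was at 62.9, 49.5, 60.5 and 57.3 CPM in WT, at 90.2, 91.5, 91.7 and 95.5 CPM in ap2-12, and at 32.7, 28.6, 41.6 and 34.8 CPM in rAP2-VENUS. It fell by 0.73 on the log2 scale against WT (SE 0.10, adjusted p = 0.00542), and the genotypes did not overlap. RLK1 shared the low values in rAP2-VENUS, but its ap2-12 libraries, at 2.67 to 4.29 CPM, overlapped those of WT, at 1.96 to 3.93 CPM.

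With the replicate block 6 of the 117 neighbours were called (5.13%, against 2.25% of all genes tested), AGL8 among them. The GRAM-domain gene AT5G23360 lies between AT5G23350 and AT5G23370, and both were called higher with the block. AT5G23350 had a log2 difference from WT of 0.59 ± 0.20 (SE) and an adjusted p of 0.34 (with the block 0.00667) and AT5G23370 of 0.95 (SE 0.21, adjusted p = 0.0735, with the block 0.0067). AT5G23370 was at 6.54 CPM in WT, 3.95 CPM in ap2-12 and 12.4 CPM in rAP2-VENUS on average, and AT5G23360 at 10.2, 8.96 and 19.4 CPM. The 3 neighbours had higher means in rAP2-VENUS than in WT, which is the selection itself for AT5G23360. Also called with the block were MES5 beside AT5G10290 (log2 fold change -0.65, SE 0.16, adjusted p = 0.105, with the block 0.00737) and PDCB4 near AT1G69280 (-0.51, SE 0.19, adjusted p = 0.409, with the block 0.0259), both in the direction of the selected gene.

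**Figure D5:**
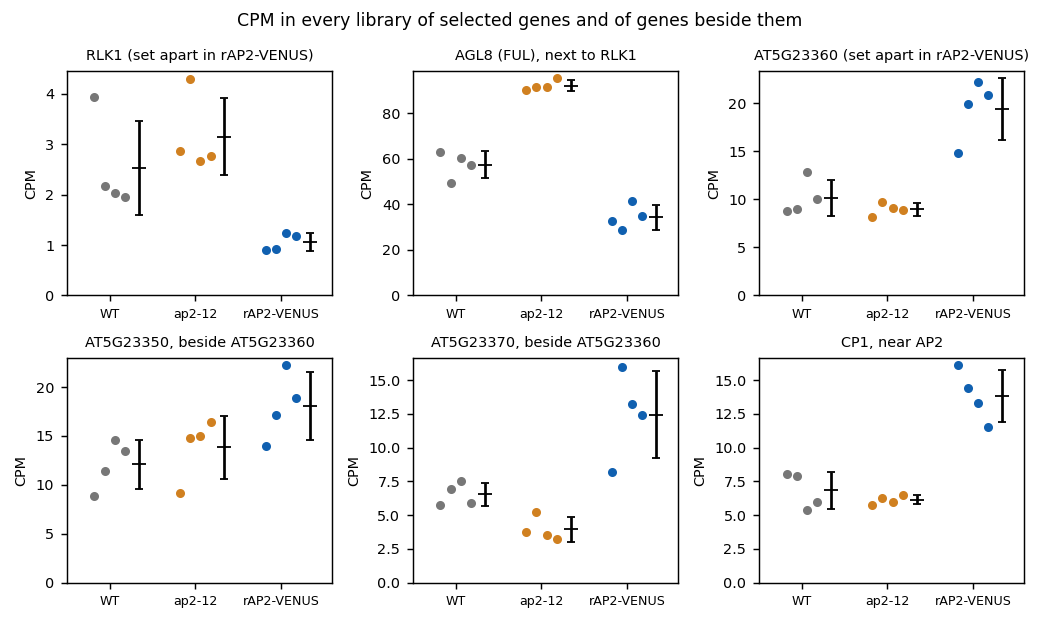
Points are single libraries in CPM for the selected genes RLK1, AT5G23360 and CP1 and for genes beside the first pair, with replicates 1 to 4 from left to right and the mean and SD (n = 4) as a bar. AGL8 is highest in ap2-12, at 92.2 CPM on average, and lowest in rAP2-VENUS, at 34.4 CPM, whereas for RLK1 the WT and ap2-12 points overlap.

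Markers of several cell types differed between the genotypes beside these results. The 3 myrosin cell markers, the myrosinase genes TGG1 and TGG2 and the regulator FMA (FAMA), had summed levels of 1420 to 2140 CPM in WT, 555 to 943 CPM in ap2-12 and 5050 to 6530 CPM in rAP2-VENUS, and all 3 were called higher against WT. The 7 mature pollen markers summed to 25.7 to 33.4 CPM in WT, 12.8 to 25.8 CPM in ap2-12 and 4.86 to 11.1 CPM in rAP2-VENUS, where 2 of 5 tested were called lower, or 4 with the replicate block. The 9 xylem markers summed to 75.6 to 89.1, 24.2 to 34.9 and 106 to 112 CPM, and none of 9 was called against WT, whereas with the block LAC17 and IRX12 were higher (adjusted p = 0.0295 and 0.0419). The 6 phloem markers summed to 96.6 to 141, 59.8 to 87.0 and 106 to 127 CPM, the 6 ovule and carpel markers to 88.2 to 135, 244 to 303 and 74.1 to 86.0 CPM, and the 11 tapetum markers in the table to 199 to 439, 422 to 1230 and 341 to 614 CPM. Leaf mesophyll markers (8) summed to 10400 to 15500, 6180 to 8200 and 10900 to 13000 CPM and guard cell markers (9) to 102 to 112, 66.4 to 85.1 and 105 to 112 CPM. In the myrosin, xylem, phloem, leaf mesophyll and guard cell lists the summed levels of the ap2-12 libraries all lay below WT. Single markers went the other way on average. The guard cell marker KAT2 was at 13.6 CPM in ap2-12 and 4.84 CPM in WT, and the phloem marker SULTR1;3 at 0.678 and 0.114 CPM. Without the block 1 phloem marker (SEOR1) was called lower and 1 guard cell marker (FMA, also on the myrosin list) higher against WT. With the block 2 leaf mesophyll markers (CA1 and CA2) were also higher and 1 carpel marker (CRC) lower. The shoot apex and floral meristem marker AP1 was likewise called lower with the block (edgeR adjusted p = 0.0281). It was at 172 CPM in WT, 82.2 CPM in ap2-12 and 139 CPM in rAP2-VENUS on average. The part of such differences in the values of the 40 genes was not tested.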

How the data were processed

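Read counts per gene were deposited by the authors as a whole-number table with a column per library, on build TAIR10 per the file headers. RNA was sequenced as single reads of 150 bp, per the labels' protocols. Per the submitters' processing notes the tools were TopHat2, SAMtools and HTSeq, with no versions, and the strand setting was not given in these sources. Every column belonged to a library of the series.

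Counts were used as deposited. CPM on column totals chose the 40 genes, and levels are in the same CPM. Genes were tested with edgeR 4.0.16 (R 4.3.3, limma 3.58.1, data.table package 1.17.8) by filterByExpr (18807 genes), TMM scaling and the quasi-likelihood test (glmQLFit, glmQLFTest), with genotype as the term and all 12 libraries in the fit, or genotype and replicate number for the test of replicate number. The threshold for a call was 0.05 after Benjamini-Hochberg adjustment. SE is the log2 fold change over the square root of F. Depth was 9680133 to 15152704 counts a library, so genes of a few CPM rest on few reads, and the SDs hold counting error as well as the spread between apices. DESeq2 1.42.0 was an alternative. The steps were tested on simulated counts. Libraries of a genotype were not duplicates, with a chi-square per degree of freedom of 5 to 45.8.

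The selected genes, the 18 gene lists and 10 marker lists, the families and the classes were chosen with earlier results of these data known. The genes named were 39 of the 40 (the other, and what bears on it, is not reported here), the genes nearest to the limit of 1.5-fold, AP2, and genes of lists, families or neighbours on which a value turns. List genes that the rule for named genes would add but that belong to no result of the 40 are given as counts. WT and rAP2-VENUS libraries sharing a replicate number, which the labels give, deviated together from their group means (correlations over genes of 0.626, 0.227, 0.198 and 0.429). The number was therefore used as a block in an alternative fit, given beside the main one. The main fit has genotype alone, so its calls and adjusted p values leave this pairing out. Symbols, product names, gene order and sequences came from RefSeq TAIR10.1, where 26719 identifiers were found and 697 were not. A copy was a transcript at least 90% identical over 150 bases.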

Additional observations from a re-analysis of the deposited data

Results flagged for a closer look

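Each selected gene was examined in each genotype for a library that stood away from the other 3 by a gap over the whole range above Dixon's critical value for groups of 4. Among 120 groups, 10 had such a library, and chance gives about 1 in 20. In WT, replicate 1 was the highest for SPL10 (116 CPM) and RLK1 (3.93 CPM) and the lowest for ALPHA DOX2 (8.68 CPM), and replicate 2 was the highest for AT1G29380 (5.02 CPM). In ap2-12, replicate 1 was the lowest for ABCA10 (0.956 CPM) and the highest for AT3G47110 (7.65 CPM), replicate 2 the highest for RLK1 (4.29 CPM) and replicate 4 the lowest for AT5G55450 (25.2 CPM). In rAP2-VENUS, replicate 1 was the lowest for AT5G04310 (4.34 CPM) and the highest for AT5G47330 (4.86 CPM). Replicate 1 of a genotype accounted for 7 of these 10 libraries. WT replicate 1 was also the smallest library, and the part of depth in these values was not tested.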

How the results depend on the processing

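The number of selected genes moved with the limits chosen. A mean of at least 5 CPM left 10 higher and 11 lower genes, a 2-fold limit 8 and 4, and a limit of 25% in place of 1.5-fold gave 42 and 65. With ap2-12 and WT within 1.1-fold there were 14 and 10, and within 1.5-fold 33 and 41. TMM or median-of-ratios scaling gave 22 and 26, with 36 of the 40 genes shared. Dividing each value by the mean of its replicate number, a replicate block, gave 39 higher and 25 lower genes, 39 of them among the 40. Leaving out a library gave 19 to 33 higher and 20 to 37 lower genes, with 28 and 37 without WT replicate 3 and 33 and 37 without rAP2-VENUS replicate 1.

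Genes called for rAP2-VENUS against WT numbered 118, 424 with the replicate block, 340 with DESeq2 and 55 to 155 with a library left out (69, 57 and 58 without WT replicates 1, 2 and 4, and 76, 64, 55 and 71 without rAP2-VENUS replicates 1 to 4). Against ap2-12 there were 3686, 6215 with the replicate block and 2792 to 4097 with a library left out. The block covered all 12 libraries, so those of ap2-12 were blocked by number as well. Same-numbered rAP2-VENUS and ap2-12 libraries correlated at 0.536, 0.0612, 0.0498 and 0.563 in their deviations from group means, so pairing between them is less certain for numbers 2 and 3. For replicate number, 5548 genes and 7 of the 40 were called, 2566 and 3 in WT and ap2-12 alone, and 3019 to 5663 and 0 to 9 with a library left out. The 7 became 0 and 1 without WT replicates 1 and 4, 2 and 1 without ap2-12 replicates 1 and 4, and 4 without rAP2-VENUS replicate 4. The 5548 became 3019 without WT replicate 1 and 3380 without ap2-12 replicate 1. The cause was not tested. The log2 ratio to WT moved by over 1 SD in 10 values and by less in 590. Its sign stayed the same for every selected gene and setting, which the selection had largely fixed in advance. Genes with few reads are the least certain.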
